A study of Mus musculus with 2 samples.

Results

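The genes of the cytosolic ribosomal proteins were examined in the E13.5 cortex of C57/BL6 mouse embryos, in tissue of the VZ–SVZ, the germinal layers that line the ventricle and hold the neural progenitors. They were taken by name, as every gene symbol of the form Rpl or Rps with a number and an optional a, l or x, together with Rplp0, Rplp1, Rplp2 and Rpsa. This gave 81 of the 21896 genes in the files, 49 for the large subunit and 32 for the small subunit. RNA was sequenced in 1 Rcor2fl/fl library and 1 Rcor2cko library from embryos of the same cross. Both carried floxed alleles of Rcor2, a corepressor that works with the histone demethylase LSD1. In Rcor2cko embryos a Cre recombinase under the Nestin promoter, which is active in neural progenitors and their progeny, deletes the floxed exons, and cells outside the neural lineage keep them. The number of embryos in each library is not given in the sources used here. Values are FPKM, the fragments of a gene scaled to its transcript length and to the depth of the library, summed over the transcripts of a gene. Changes are log2 ratios of Rcor2cko over Rcor2fl/fl after adding 0.1 FPKM. With 1 library per genotype there is no replicate check, so no test was made, and every difference is between these 2 libraries. Bulk RNA cannot tell fewer cells of a type from less RNA per cell.

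A ribosome is built from a large and a small subunit, each made of ribosomal RNA and a set of proteins, most of which are needed in equal numbers. The messenger RNAs of these proteins are among the most abundant of any growing cell, and most begin with a tract of pyrimidines, the 5′ TOP, through which growth signals control their translation. In mammals these messenger RNAs have also been copied back into the genome many times as intronless retrocopies, most of them pseudogenes. Neural progenitors of the embryonic cortex divide fast and make ribosomes at a high rate.

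The libraries were set apart by more than the deletion. Values given as a pair are for Rcor2fl/fl first and Rcor2cko second. Rcor2 itself was at 90.6 and 55.7 FPKM, with 95% FPKM intervals that did not overlap. These values cover the whole gene, and not the floxed exons alone. The paper reports that RNA of the floxed exons was absent in Rcor2cko cortex and that the protein was depleted by western blot. Xist, the RNA of the inactive X chromosome, was at 177 and 0.109 FPKM, and the Y-linked Eif2s3y was listed at 0 and at 19.8 FPKM, so the libraries also differ in sex-linked genes. All 6 progenitor and all 5 cortical neuron markers were above 1 FPKM in both libraries. Summed, the progenitor markers were at 826 and 979.9 FPKM, but only 3 were higher in Rcor2cko and 3 were lower. Among them Fabp7 was at 372 and 539 FPKM, with its 95% FPKM intervals apart, and Nes was at 67.3 and 54.7 FPKM. The neuron markers were at 1364 and 1324 FPKM summed, with 3 higher and 2 lower. The 3 microglia markers were all higher in Rcor2cko, at 6.77 and 10.8 FPKM summed, and the intervals of Csf1r lay apart. The summed level of 5 choroid plexus markers was 0.654 FPKM against 60.8 FPKM, of which Ttr made up 57.8 FPKM, and that of 7 erythroid markers was 242 FPKM against 178 FPKM. The part of these differences in the values below was not tested.

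Most of the ribosomal protein genes stood at a high level. Of the 81 genes, 78 reached 1 FPKM in at least 1 library (46 large, 32 small) and had a median of 521 FPKM in both libraries, against 10.5 and 10.4 FPKM over the 11777 genes that passed the same filter. Together they held 12.5% of the summed FPKM of the Rcor2fl/fl library and 12.8% of that of the Rcor2cko library. The large-subunit genes had medians of 468 and 491 FPKM, and the small-subunit genes 579 and 574 FPKM. The summed FPKM of the large subunit was 1.28 times that of the small subunit in the Rcor2fl/fl library and 1.27 times in the Rcor2cko library.

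The 5 genes of highest mean level came from both subunits. Rpl41, which encodes the smallest protein of the large subunit, was at 1026 and 892 FPKM. Rps12, of the small subunit, was at 1019 and 1006 FPKM. Rpl23a, whose protein lies at the exit of the peptide tunnel, was at 955 and 975 FPKM. The acidic stalk protein gene Rplp1 was at 858 and 803 FPKM, and Rpl32 was at 815 and 860.1 FPKM. The 95% intervals that came with the values reached about 12.8% to either side at the median gene, so that neighbours in this order are not set apart by them. Without 6 genes of far lower level and the paralog genes, the core set comprised 71 genes, of which 70 were above 100 FPKM and 66 above 200 FPKM in both libraries.

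**Figure D1:**
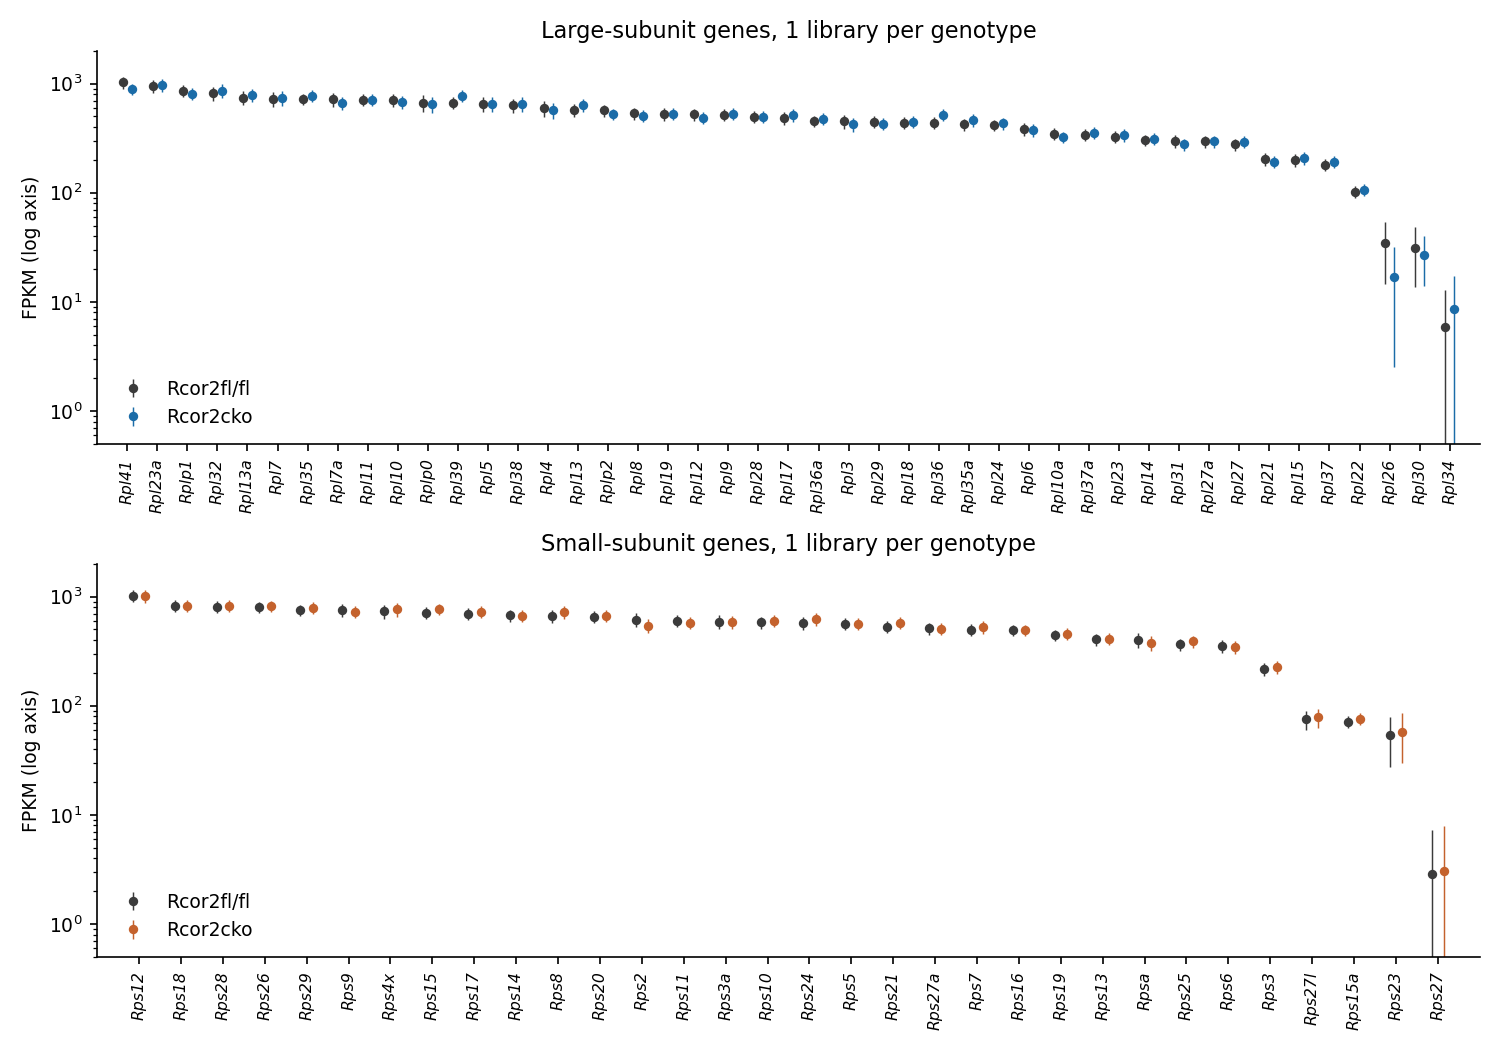
Level of genes that passed the filter, in FPKM on a log axis, large-subunit genes above and small-subunit genes below, in order of the Rcor2fl/fl level. Points are the 1 library of each genotype and bars the deposited 95% FPKM interval, cut at 0.5 FPKM. Of 71 core genes 66 lie above 200 FPKM, with both libraries close together, and Rpl26, Rpl30, Rpl34, Rps23 and Rps27 fall far below.

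Rpl26, Rpl30, Rpl34, Rps23 and Rps27 did not share this level, although each encodes a protein of the cytosolic ribosome. Rps27 was at 2.84 FPKM (95% FPKM interval 0 to 7.26) and 3.03 FPKM (0 to 7.93). Rpl34 was at 5.94 FPKM (0 to 12.8) and 8.54 FPKM (0 to 17.1). The intervals of both genes began at 0 in both libraries. Rpl30 was at 31.2 FPKM (13.6 to 48.7) and 27.1 FPKM (13.9 to 40.2). Rpl26 was at 34.4 FPKM (14.5 to 54.2) and 17.1 FPKM (2.55 to 31.6). Rps23 was at 53.5 FPKM (27.5 to 79.5) and 58.0 FPKM (29.9 to 86.0). All 5 lay below the lowest of the 71 core genes, Rps15a, at 71.6 and 76.1 FPKM.

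In the files each of these 5 genes shares its locus, to the base, with a second entry that carries a level typical of a ribosomal protein gene. The entry Gm15772 at the Rpl26 locus was at 701 and 743 FPKM, and Gm12191 at the Rpl30 locus at 539.9 and 565 FPKM. Rpl34-ps1 at the Rpl34 locus was at 753 and 864 FPKM. Gm15450 at the Rps23 locus was at 823 and 879 FPKM, and Gm9846 at the Rps27 locus at 1059 and 1201 FPKM. Of the summed FPKM of member and second entry, the member held between 0.268% (Rps27) and 6.10% (Rps23) in the Rcor2fl/fl library. The status given with the second entry was other than OK in both libraries for Gm15772, Gm15450 and Gm9846.

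**Figure D2:**
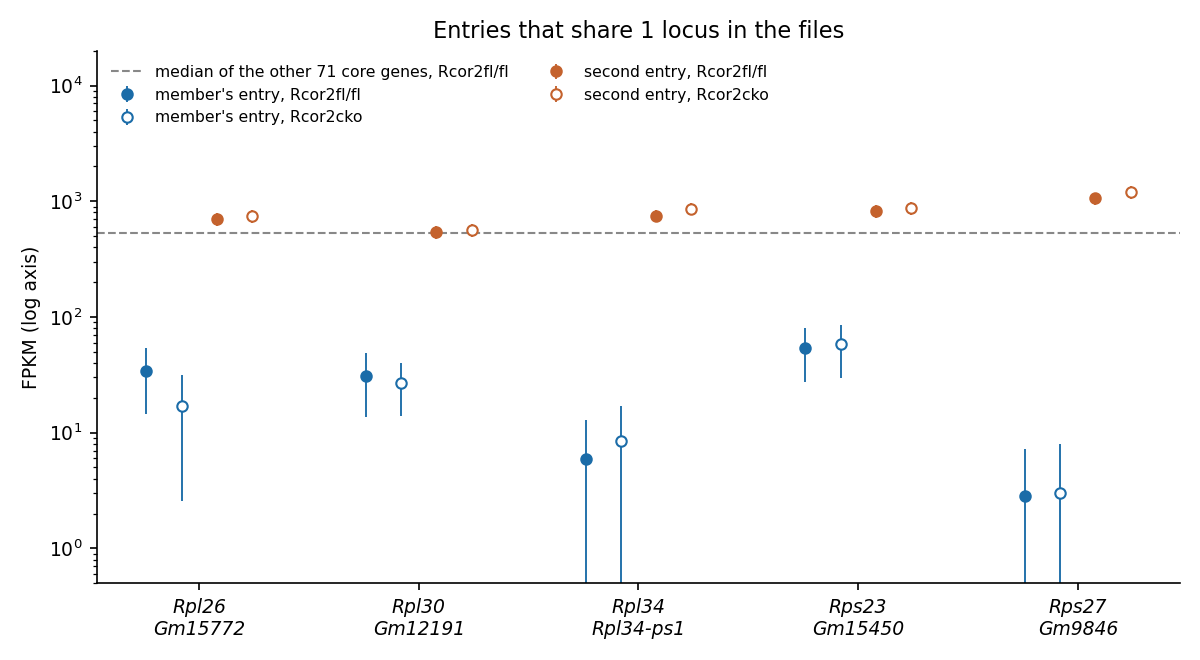
Level of 5 low genes (blue) and of the second entry at the same locus (orange), in FPKM on a log axis. Filled points are the Rcor2fl/fl library and open points the Rcor2cko library, bars are the deposited 95% FPKM intervals cut at 0.5 FPKM, and the dashed line is the median of the 71 core genes in the Rcor2fl/fl library, 532 FPKM. Every second entry lies above the line and every member's own entry far below it.

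The GENCODE vM1 annotation of the same genome build (mm9) puts the symbols of all 5 second entries on other chromosomes, at intronless copies of the member they sit on in the files. Gm15772 is placed on chromosome 5, Gm12191 on chromosome 11, Rpl34-ps1 on chromosome 6 and Gm15450 on chromosome 3, all annotated as pseudogenes. Gm9846, which RefSeq lists under the name Rps27rt, is placed on chromosome 9 and annotated as protein-coding. Aligned over the whole coding sequence of the member, the copies were identical at 349 of 351 bases (Rpl34), 433 of 435 (Rpl26) and 344 of 345 (Rpl30). Gm15450 matched all 429 coding bases of Rps23 and Gm9846 all 252 coding bases of Rps27. The exon junctions within these coding sequences, 2 in Rpl26 and 3 in each of the others, were all contiguous in the copy.

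The stretches that follow show this at 1 exon junction of 4 of these genes, the first with 30 coding bases on both sides that the copy holds without a gap. They are written 5′ to 3′ as read from mm9, 60 bases each. In the member the capitals mark the last base of the upstream exon and the first base of the downstream exon, which in the gene are set apart by an intron. In the copy the capitals mark a base that differs from the member. For Rpl26 the stretch joins chr11:68715915-68715944 and chr11:68716681-68716710 (+ strand), over an intron of 736 bases, and the copy Gm15772 holds it at chr5:3236569-3236628, + strand.
Rpl26: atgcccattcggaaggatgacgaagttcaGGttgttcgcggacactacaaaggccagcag
Gm15772: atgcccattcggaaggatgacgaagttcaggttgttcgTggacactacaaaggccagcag

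In this pair 1 of 60 bases differed. For Rpl30, Rpl34 and Rps27 the stretch was identical in the copy, so that a read lying within it has the same letters in gene and copy and only the intron tells them apart in the genome. These copies lie at chr11:49492363-49492422, - strand (Gm12191), chr6:71074639-71074698, + strand (Rpl34-ps1) and chr9:114891681-114891740, - strand (Gm9846).
Rpl30: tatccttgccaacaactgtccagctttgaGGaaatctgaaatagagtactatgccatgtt
Rpl34: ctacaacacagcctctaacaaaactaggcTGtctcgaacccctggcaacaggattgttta
Rps27: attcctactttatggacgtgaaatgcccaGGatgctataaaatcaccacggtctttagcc

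How reads that match several places were counted is not given in the sources used here, and the cause of the low values was not tested. Adding the second entry to its member gave 736 and 759.7 FPKM for Rpl26 and 571 and 592 FPKM for Rpl30. It gave 759 and 873 FPKM for Rpl34, 877 and 937 FPKM for Rps23, and 1062 and 1204 FPKM for Rps27. With these sums all 5 genes lay above the median of the core genes. With every such entry added, the ribosomal protein genes held 13.9% and 14.4% of the summed FPKM.

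Copied sequence was common to the whole family, in the low genes and in the others. Each transcript was cut into every run of 31 consecutive bases, here called words, and each word was looked for elsewhere in mm9. A transcript was found in the annotation at a length within 10% of that in the files for 68 of the 81 genes. At the median 72.4% of their words occurred elsewhere (75.3% for the large subunit, 72.0% for the small subunit), against 2.76% for 57 mitochondrial ribosomal proteins and 4.80% for 26 ribosome biogenesis factors. For 13 translation factors and other 5′ TOP messenger RNAs it was 48.9%, with a highest value of 95.5%. These 68 genes had 874 places in the genome that held at least 10% of the transcript and ran without a break over at least 1 exon junction, of which 399 overlapped an annotated pseudogene. Rpl7a had the most, 89, followed by Rpl21 with 69, Rpl29 with 60 and Rpl17 with 57. Rpl8, Rps15a and the paralogs Rpl3l and Rpl39l had none. Rpl10l has 1 exon and so no junction by which a copy could be counted, and 46.9% of its words occurred elsewhere.

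Among Rpl26, Rpl30, Rpl34 and Rps23, which had a matched length, 56.7% (Rpl34) to 92.5% (Rps23) of the words occurred elsewhere, within the range of the other genes. Rps12 had 98.2% of its words elsewhere and 23 such copies, with an exact run of 495 bases in common, and stood at 1019 FPKM. The longest run that a low gene shared exactly with a copy was 185 bases at the least (Rpl34), and 48 of 59 core genes had a run at least as long. Over 65 genes Spearman's rho between the number of copies and the Rcor2fl/fl level was -0.0032, and between copies and the log2 change -0.05. Between the percent of words found elsewhere and the level it was 0.40, and between that percent and the log2 change 0.02. These are descriptions over genes of the same libraries, and genes are not replicates.

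**Figure D3:**
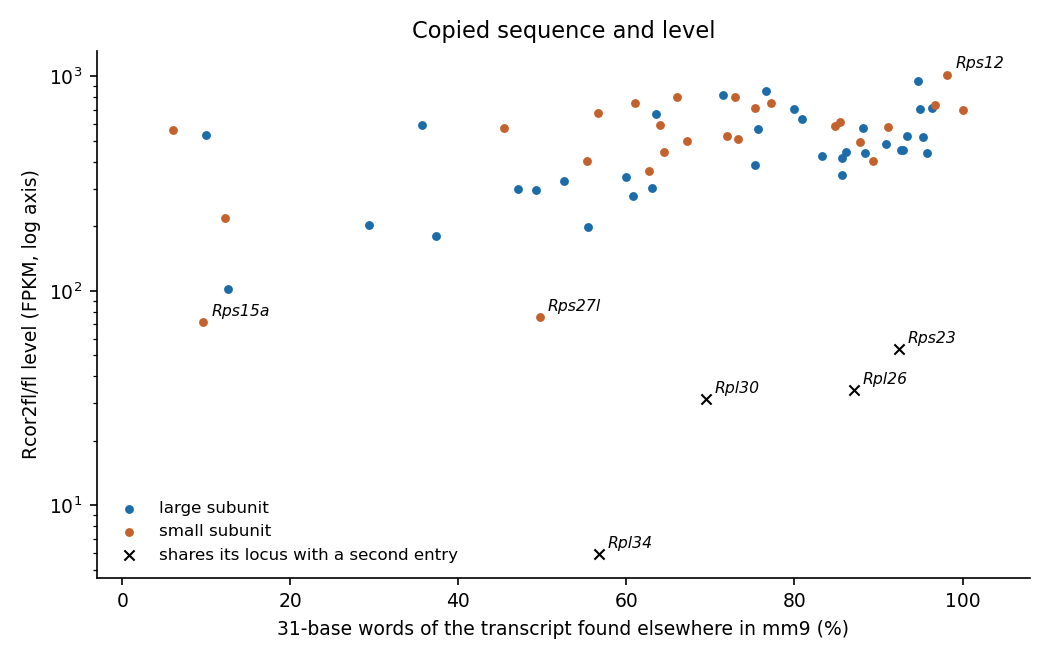
Rcor2fl/fl level in FPKM on a log axis against the percent of 31-base words of the transcript that occur elsewhere in mm9, for genes with a matched transcript length. Blue points are large-subunit and orange points small-subunit genes, and crosses are genes that share their locus with a second entry. Genes with nearly all words copied, such as Rps12, reach the highest levels, and the crosses lie far below genes with a similar share.

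Part of the remaining spread in level followed the length of the transcript that the files assign to a gene. Rps15a, assigned 5134 nt, was the lowest core gene at 71.6 and 76.1 FPKM, and Rpl22, assigned 2040 nt, followed at 102 and 106 FPKM. Rpl15 (1841 nt, 199.6 and 208 FPKM), Rpl21 (1856 nt, 202 and 192 FPKM) and Rps3 (1878 nt, 218 and 226 FPKM) were low as well. Rpsa, assigned 1861 nt, stood higher at 403 and 377 FPKM, and Rpl37, at 179.7 and 192 FPKM, was low with a transcript of 867 nt. Over the 71 core genes rho between length and FPKM was -0.52. Where fragments could be recovered, the order turned: over 62 core genes rho between length and depth-scaled fragments, which are not divided by length, was 0.63. Rps15a, the lowest by FPKM, held 6663 fragments in the Rcor2fl/fl library against 6221 for Rps12, the second highest by FPKM.

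**Figure D4:**
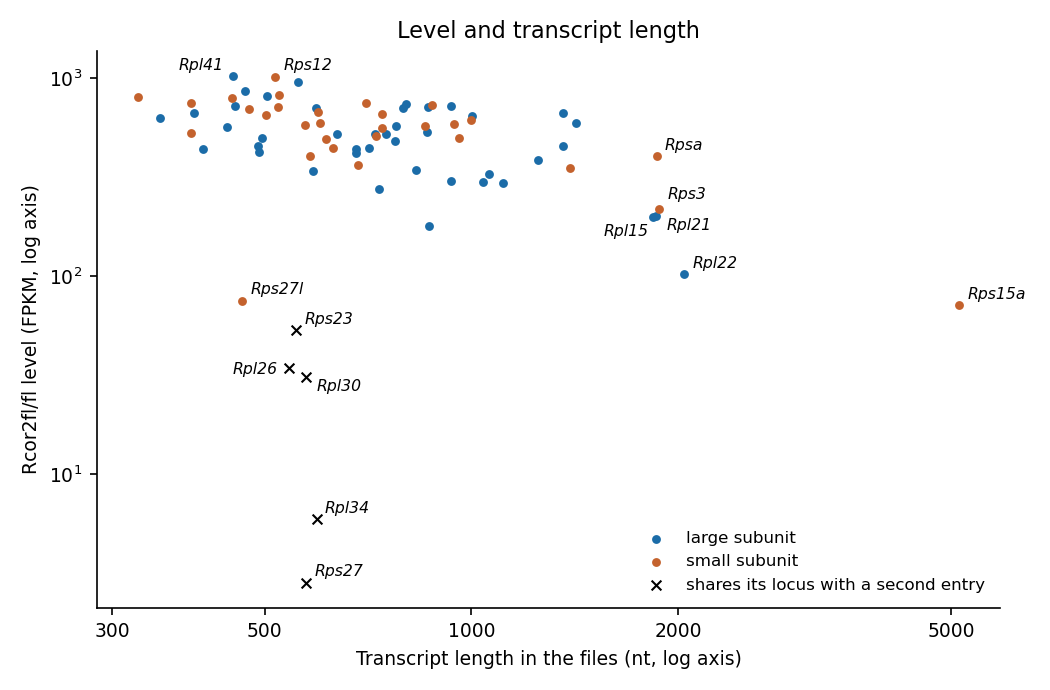
Rcor2fl/fl level in FPKM against the length of the gene's transcript in the files in nt, both on log axes, for genes that passed the filter. Blue points are large-subunit and orange points small-subunit genes, and crosses mark 5 genes that share their locus with a second entry. Rps15a and Rpl22, with the longest transcripts, are the lowest genes apart from the crosses and the paralog Rps27l.

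Between the libraries the ribosomal protein genes differed little. The median log2 change was 0.03 over the 78 genes (SD over genes 0.18), against -0.03 over all 11777 genes (SD 0.45). It was 0.02 for the large-subunit genes (SD 0.23) and 0.04 for the small-subunit genes (SD 0.07), a difference of -0.02 that was not tested. Among the core genes, without the low genes and paralogs, the subunits were closer. There the medians were 0.02 (SD 0.09) for 42 large-subunit genes and 0.03 (SD 0.07) for 29 small-subunit genes. The median over the 78 genes was 0.05 with median or total scaling and 0.07 with upper-quartile scaling. Fragments were recovered for 66 of the genes, whose median was 0.02 by FPKM. In depth-scaled fragments it was -0.01, over the 66 genes and for each subunit. Over all 9179 genes with recovered fragments the median was -0.04 by either measure. In the Rcor2cko library 31 of the 78 genes were lower and 47 higher, so that 39.7% were lower against 57.6% of all genes. This split was sensitive to scaling: 29.5% were lower after scaling to the same median or total, 25.6% after upper-quartile scaling, and 53.0% of the 66 genes with recovered fragments in depth-scaled fragments. The same 66 genes were lower in 43.9% by FPKM, and 59.5% of all 9179 genes with recovered fragments were lower in depth-scaled fragments. Median, total and upper-quartile scaling raise every gene alike, so the 57.6% of all genes compares with the unscaled share only. All 71 core genes lay within 0.25 on the log2 scale, with an SD over genes of 0.08. The 97 other genes of at least 200 FPKM in both libraries had a median of -0.05 and an SD of 0.14, and 70.1% of them were lower.

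Past 1.5-fold were 2 of the 78 genes, both lower in the Rcor2cko library, where 5.54% of all genes tested passed this fold in either direction and 1.76% were lower by it. Rpl26, of the low genes, was at -1.01 on the log2 scale, with overlapping 95% FPKM intervals. With the second entry added, the log2 change of Rpl26 was 0.05, and with every second entry added no ribosomal protein gene passed 1.5-fold. None of the 78 genes had 95% FPKM intervals that lay apart, against 3.46% of all genes tested.

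**Figure D5:**
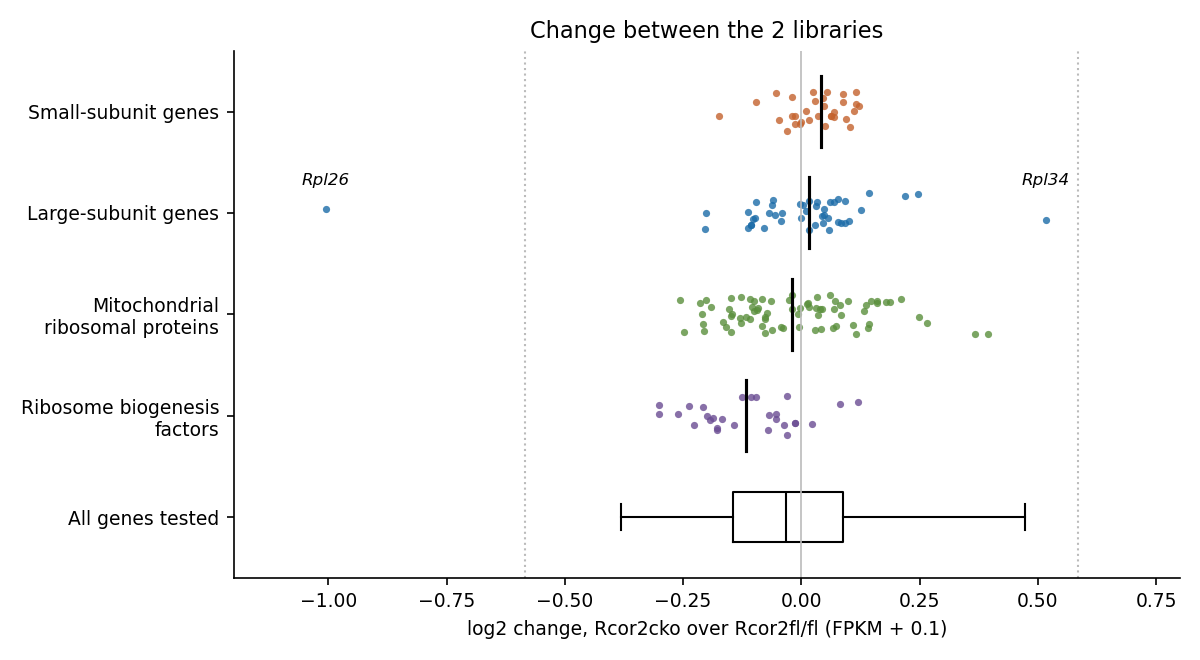
Log2 change of Rcor2cko over Rcor2fl/fl, (FPKM + 0.1), for the large- and small-subunit genes, mitochondrial ribosomal proteins and ribosome biogenesis factors, 1 point per gene, with black lines at the medians. The box shows the quartiles, median and 5th and 95th percentiles of all 11777 genes tested, and dotted lines mark 1.5-fold. Both subunits centre close to 0 with medians of 0.02 and 0.04, and Rpl26 is the labelled gene beyond the dotted lines.

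Among genes of at least 5 FPKM in both libraries, the largest falls after Rpl26 were Rpl30 (-0.20, another of the low genes), Rpl41 (-0.20), Rps2 (-0.17) and Rplp2 (-0.11). Rps2, whose protein lines the entry of the messenger RNA channel, was at 612 and 543 FPKM. The largest rises were Rpl34 (0.52, a low gene that rose from 5.94 to 8.54 FPKM), Rpl36 (0.25), Rpl39 (0.22), Rpl13 (0.14) and Rpl35a (0.13). Rpl36 was at 437 and 519 FPKM, and Rpl39, whose protein lies in the peptide tunnel, at 667 and 776 FPKM. Rpl13 was at 574 and 634 FPKM, and Rpl35a at 425 and 464 FPKM. Short transcripts occurred among the rises, Rpl36 (407 nt) and Rpl39 (394 nt), and among the falls, Rplp2 (441 nt) and Rpl41 (449 nt). Spearman's rho between length and log2 change was -0.25 over the 78 genes and -0.24 over the 71 core genes. In depth-scaled fragments, which are not divided by length, Rpl36 was at 93.1 and 106.9, and none were recovered for Rpl39. The part of length in these changes was not tested. With its second entry added, Rpl34 changed by 0.20 and Rpl30 by 0.05.

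The fragments behind these values allow smaller differences to be seen between the libraries. Where a gene has a single row and its transcript reaches 400 nt, FPKM times the length less an offset gives an estimate of its fragments. The estimates were checked to be whole only up to 100 fragments, and were rounded above that. By them 62 ribosomal protein genes had at least 1000 fragments in both libraries. For each, the log2 change in FPKM was given a 95% interval by the exact Clopper-Pearson method, which covers counting error only, and its median width was 0.105. It lay above 0 for 17 genes and below 0 for 16, together 53.2%, where it excluded 0 for 54.0% of all 2605 genes of this depth. It ran from -0.26 to -0.15 for Rpl41, from -0.21 to -0.13 for Rps2 and from 0.16 to 0.33 for Rpl36. Differences of this size between 2 libraries say nothing of the spread between embryos, which was not measured.

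The genes were also read by the role of their products. The P stalk, which recruits elongation factors, is made of Rplp0 with Rplp1 and Rplp2. All 3 were slightly lower in the Rcor2cko library: Rplp0 was at 668 and 649 FPKM, Rplp1 at 858 and 803 FPKM, and Rplp2 at 569 and 526 FPKM. With upper-quartile scaling, which adds 0.044 to every log2 change, Rplp0 turned to higher and 2 of the 3 stayed lower. Rpl5 and Rpl11, which bind the 5S ribosomal RNA and, when free, the p53 regulator Mdm2, were at 648 and 656 FPKM and at 709 and 714 FPKM, changes of 0.02 and 0.01. Rpl24, Rpl38, Rps19 and Rps20, in which mouse mutations alter body pattern or pigment, changed by 0.02 to 0.05. Rpl38, mutated in the Tail short mouse, was at 633 and 654 FPKM. Its Rcor2fl/fl value is the sum of 3 transcript rows, of which the highest was 379 FPKM. Of 13 genes mutated in Diamond-Blackfan anaemia, an inherited failure of red cell formation, 12 were higher, with a median change of 0.05. The share higher was 60.3% over the 78 genes and 42.4% over all genes tested. The 1 lower gene, past 1.5-fold, was Rpl26, a low gene that changed by 0.05 with its second entry added. In depth-scaled fragments Rpl11, Rps20 and Rps26 turned to lower.

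Of the 78 genes, 4 lie on the X chromosome, and these libraries differ in Xist. Rpl10, of the large subunit, was at 706 and 678 FPKM, and Rpl36a at 454 and 476 FPKM. Rpl39 was at 667 and 776 FPKM, and Rps4x, of the small subunit, at 732 and 765 FPKM. Their median change was 0.07 against 0.03 for the 74 autosomal genes. Eif2s3x, an X-linked translation factor known to escape X inactivation in the mouse, was at 93.2 and 64.4 FPKM. The sex of the embryos and the deletion cannot be told apart in these libraries.

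Among the paralogs set apart from the core genes, all but Rps27l were almost silent. Rpl10l, a testis paralog of Rpl10, was listed at 0 in both libraries. Rpl3l, the striated muscle paralog of Rpl3, was listed at 0 and at 0.0468 FPKM, beside Rpl3 at 452 and 423 FPKM. Rpl39l was at 0.174 FPKM and listed at 0, beside Rpl39 at 667 and 776 FPKM. These 3 genes are the ones that did not pass the filter, and 3 fragments of a 600 nt transcript would amount to 0.392 FPKM (Rcor2fl/fl) and 0.295 FPKM (Rcor2cko). Rps27l, a p53-inducible paralog of Rps27, was at 75.4 FPKM (95% FPKM interval 60.5 to 90.3) and 78.3 FPKM (62.9 to 93.7), a change of 0.05. It exceeded the Rps27 entry at 2.84 and 3.03 FPKM but lay far below Rps27 with its second entry.

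Some ribosomal proteins have names outside the rule. Fau, which encodes a ribosomal protein joined to a ubiquitin-like protein, was at 415 and 424 FPKM. Rpl22l1, a paralog that can stand in for Rpl22, was at 102 and 109 FPKM, next to Rpl22 at 102 and 106 FPKM. Over 6 such genes the median change was -0.08, with none past 1.5-fold, and 4 were lower, or 3 with upper-quartile scaling.

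Genes that serve the ribosome without being part of it gave a partly different picture. The 28 ribosome biogenesis factors transcribe, cleave, modify and assemble ribosomal RNA. Of these, 25 (89.3%) were lower in the Rcor2cko library, against 57.6% of all genes tested. None passed 1.5-fold, and the median was -0.12, beside 0.03 for the ribosomal proteins and -0.03 for all genes. With median or total scaling 23 were lower, and with upper-quartile scaling 20, with a median of -0.07. These scalings raise every gene alike, so the 57.6% and -0.03 of all genes compare with the unscaled values only. Bop1, of the complex that processes the large-subunit RNA, was at 21.6 and 17.5 FPKM. Rrp9, which binds the U3 small nucleolar RNA, was at 14.5 and 11.7 FPKM, and the polymerase I subunit gene Polr1a at 7.55 and 6.60 FPKM. Npm1, the most abundant of the list, was at 416 and 386 FPKM. Of 17 translation factors and other 5′ TOP messenger RNAs that passed the filter, 12 (70.6%) were lower, with a median of -0.05 and none past 1.5-fold. This was close to the 70.1% and -0.05 of the 97 other genes of at least 200 FPKM in both libraries. With upper-quartile scaling 10 of the 17 were lower, while the 70.1% of the other genes is an unscaled share. Eef1a1, the elongation factor that delivers transfer RNA, was at 3182 and 3086 FPKM. The 76 mitochondrial ribosomal proteins, which build a separate ribosome, had a median change of -0.02, with 42 lower and 34 higher, and after median scaling 37 were lower and 39 higher. No interval stands behind these medians, since the genotypes have 1 library each.

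The start sites were read for the 5′ TOP, here taken as a C at the first transcribed base followed by at least 4 bases that are each C or T. Start sequences came from RefSeq (GRCm38.p6), which is another build than that of the files, and were matched by symbol for 58 of the 78 genes. At an annotated start of 13 of them (22.4%) such a tract was found, 7 of 34 large-subunit and 6 of 24 small-subunit genes, against 2.86% of 8317 other genes. It was found in 4 of 11 translation factors and other 5′ TOP messenger RNAs (36.4%), and in 0 of 23 ribosome biogenesis factors. The match was made at the annotated base alone, so that a start a few bases away is missed. The tracts of Rpl15, Rpl35, Rps10, Rps18 and Rps6 were the longest, followed by those of Rpl28, Rpl35a, Rpl38 and Rps15a at equal length. The first 6 are shown in windows of 30 bases, with 12 bases before the start and the tract in capitals. The windows lie at chr14:18270969-18270998 (- strand), chr2:39005114-39005143 (- strand), chr17:27635227-27635256 (- strand), chr17:33955648-33955677 (- strand), chr4:86857350-86857379 (- strand) and chr7:4792953-4792982 (+ strand).
Rpl15: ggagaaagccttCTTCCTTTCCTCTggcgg
Rpl35: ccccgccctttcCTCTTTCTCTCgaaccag
Rps10: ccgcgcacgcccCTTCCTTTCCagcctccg
Rps18: gtcacttccgctCTCTCTTCCacaggaggc
Rps6: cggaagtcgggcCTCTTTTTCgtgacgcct
Rpl28: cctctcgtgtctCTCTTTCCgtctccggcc

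The 13 genes with a tract had a median change of 0.05 and a median Rcor2fl/fl level of 498 FPKM, and the 45 without had 0.03 and 499 FPKM. Of the genes shown, Rpl15 was at 199.6 and 208 FPKM, Rpl35 at 722 and 775 FPKM, and Rps10 at 582 and 602 FPKM. Rps18 was at 825 and 824 FPKM, Rps6, whose phosphorylation is a common readout of mTOR signalling, at 350.4 and 343 FPKM, and Rpl28 at 498 and 498 FPKM. The largest change among these 6 genes was 0.10 on the log2 scale, for Rpl35.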

How the data were processed

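RNA of the E13.5 VZ–SVZ was measured in 1 Rcor2fl/fl and 1 Rcor2cko library. The authors made the libraries with a stranded mRNA kit. The paper's methods name TopHat v2.0.3, mm9 and Cuffdiff, and the submitters' processing notes TopHat 1.3.3 and Cufflinks 1.2.0. The deposited FPKM values come with 95% FPKM intervals, in 27641 transcript rows for Rcor2fl/fl and 21896 gene rows for Rcor2cko.

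Rows were summed per gene, and half-widths of intervals combined as the root of summed squares. A gene entered when either library reached 1 FPKM, and was compared as log2(FPKM + 0.1), and 1.5-fold was the limit. With 1 library per genotype no p-value was computed. Fragments were recovered with offsets of 194.1 and 200.9 nt and scaling totals of 18841070 and 25481460. Of low values at 400 to 1000 nt, 98.7% of 472 and 99.4% of 480 came within 0.1 of a whole number. The steps were tested on simulated data. Intervals cover counting error only, and PCR duplicates were not separable.

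Words of 31 bases were searched on the chromosomes of NCBIM37, which is mm9. Copies gather matches within 5000 bases. Coding sequences were aligned with Biopython 1.88. Rpl41 was not matched by symbol in GENCODE vM1. Analyses used Python 3.11.15, numpy 2.4.6, pandas 2.3.3, scipy 1.17.1 and matplotlib 3.10.9.

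The members and lists were chosen with earlier results of these data known. Named genes were the 5 highest and 5 lowest, the 5 largest rises and falls at 5 FPKM or more, those past 1.5-fold or listed at 0, paralogs with partners, and genes of the role lists and the X chromosome. Other members and non-members were named to show lengths, copies, start sites and the lists. The values of some genes and a sequence are not reported here and are left out of the plots, although counts and medians include them.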

Additional observations from a re-analysis of the deposited data

How the results depend on the processing

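Over 16 alternatives (pseudocounts, scalings, filters, highest row, status, paralogs, genes with several rows, and 3 chosen after seeing the data), the median log2 change of the ribosomal protein genes ranged from -0.0057 in depth-scaled fragments, where it turned below 0, to 0.073 with upper-quartile scaling. The fragment value covers 66 genes, whose median by FPKM was 0.017. The range was -0.0082 to 0.061 for the large subunit and -0.0057 to 0.084 for the small subunit, with the same settings at the ends, and -0.028 to -0.0026 for the difference between them. The percent of genes lower in Rcor2cko moved from 39.7% to 29.5% with median scaling, 29.5% with total scaling, 25.6% with upper-quartile scaling and 53.0% in depth-scaled fragments, where 66 genes enter that were at 43.9% by FPKM. The 3 scalings shift every gene by 0.021, 0.024 and 0.044 on the log2 scale. The number past 1.5-fold moved from 2 to 1 at a filter of 5 FPKM, and to 0 when non-overlapping intervals were required, when second entries were added to their members, and when members with a second entry were left out. The share of summed FPKM rose to 13.9% (Rcor2fl/fl) and 14.4% (Rcor2cko) with second entries added. For Rpl26 the direction turned to 0.046 with its second entry added. Of 219 values for 31 named genes under alternatives, 213 moved by less than the gene's own 95% half-width. Of the rest, 4 were pseudocounts for Rpl3l and Rpl39l, and 1 was the highest row of Rpl38, where the Rcor2fl/fl row is 1 of 3 transcripts and the Rcor2cko row a whole gene. No paired analysis was possible because each genotype has 1 library, and for the same reason no replicate could be left out. Levels under about 3 fragments cannot be told from 0.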

Other observations

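A low gene beside a high second entry at the same locus also occurred outside the ribosomal proteins. Tpt1, an abundant 5′ TOP messenger RNA, was listed at 0 (Rcor2fl/fl) and at 0.113 FPKM (Rcor2cko), and the entry Tpt1p at the same locus was at 1834 and 1880 FPKM. In all, 172 gene symbols lie at a locus in the files that does not overlap their place in GENCODE vM1, of which 30 are annotated as pseudogenes there. Of the 172, 10 share a locus with another entry and reached 100 FPKM, the 6 at ribosomal protein genes among them. The other 4 were Gm10052 at Hnrnpa1 (577 and 511 FPKM), Gm6793 at Hnrnpa3 (377 and 317 FPKM), Gm9786 at Oaz1 (119 and 105 FPKM) and Hbb-b1 at Hbb-b2 (152.9 and 97.5 FPKM). For these 4 the level of the gene at the same locus is not given here, so whether it was low is not shown. These genes were chosen after their values were seen.

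Rps4y2, which RefSeq pairs with the name Rps4l, an autosomal paralog of Rps4x, stood at 8.31 and 18.2 FPKM (log2 change 1.12), and its 95% FPKM intervals overlap. Snora69, a small nucleolar RNA in an intron of Rpl39, was listed at 0 in Rcor2fl/fl and at 127 FPKM in Rcor2cko, where its interval ran from 0 to 1105 FPKM.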
